A study of Mus musculus with 27 samples.

Results

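The step from 3 to 6 h after stroke surgery was compared in the ischemic cortex of mice. Its members are the 6 small RNA libraries, of 27 in the series, that the labels place in cortex of the occluded hemisphere at those times, 3 per time. All came from wild-type C57BL6 mice, an inbred laboratory strain, aged 7 to 8 weeks. Each animal had middle cerebral artery occlusion (MCAO), in which a suture passed through the carotid artery blocks blood flow to the lateral cortex, here for 35 min, and then 3 or 6 h of reperfusion. The cortex of the opposite (contralateral) hemisphere at the same times gave 6 further libraries, and 3 came from sham animals whose arteries were exposed without a suture. A replicate number stands for a day of surgery, written day 1, 2 or 3 below, and the fits hold the day as a block. The labels do not say how many animals went into a library, nor whether the infarct core and its border were separated.

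MicroRNAs (miRNAs) are short RNAs that guide Argonaute proteins to messenger RNAs, which are then repressed. Bases 2 to 8 of the mature strand, the seed, carry most of the pairing to a target, and each hairpin precursor can give a mature strand from its 5′ arm (5p) and its 3′ arm (3p). In cortex, miR-124, miR-9 and miR-128 are known as neuronal miRNAs, the let-7 and miR-181 families are abundant, and miR-132 and miR-212 depend on neuronal activity through the transcription factor CREB. In ischemic tissue, miR-210 is known as a target of the hypoxia factor HIF, and miR-21 and miR-146 as miRNAs of injury and inflammation.

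The sequences of the miRNAs that the results turn on are shown first, 5′ to 3′, from RefSeq with the loci of build GRCm38.p6, and with the seed in capitals. The first set holds members of the miR-181 and let-7 families whose values are given below, among them the most abundant of each, miR-181a-5p and let-7f-5p:
miR-181a-5p: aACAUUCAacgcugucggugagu
miR-181b-5p: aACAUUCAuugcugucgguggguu
let-7f-5p: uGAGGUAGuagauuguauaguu
let-7e-5p: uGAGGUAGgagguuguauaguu
let-7j: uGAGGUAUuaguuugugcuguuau

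Positions are counted from 1 at the 5′ end, with the base of the first-named miRNA first. Between miR-181a-5p and miR-181b-5p 20 of 23 aligned positions are identical, and the substitutions A9U, C10U and A21G lie outside the shared seed. let-7f-5p and let-7e-5p differ by U9G and A12G. let-7j differs from let-7f-5p at 5 of 22 positions, one of them, G8U, in the seed. miR-181a-5p is encoded by Mir181a-1 at chr1:137966468-137966490 (+), in no other annotated gene, and by Mir181a-2 at chr2:38852741-38852763 (+), opposite an intron of Nr6a1. let-7f-5p comes from Mirlet7f-1 at chr13:48537889-48537910 (-), in an exon of the noncoding 6720427I07Rik, and from Mirlet7f-2 at chrX:151912353-151912374 (+), in an intron of Huwe1.

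The second set holds entries that had small unadjusted p-values with more counts at 6 h, and miR-21a-5p, the close relative of miR-21b:
miR-717: cUCAGACAgagauaccuucucu
miR-200a-5p: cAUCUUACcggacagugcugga
miR-541-5p: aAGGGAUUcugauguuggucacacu
miR-146b-5p: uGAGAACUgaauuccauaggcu
miR-21b: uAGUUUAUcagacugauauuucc
miR-21a-5p: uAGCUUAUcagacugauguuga

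miR-717 lies at chrX:52422461-52422482 (-) in an intron of Gpc3, miR-541-5p at chr12:109742422-109742446 (+) in an intron of the imprinted noncoding gene Mirg, and miR-146b-5p at chr19:46342790-46342811 (+) in an intron of Mfsd13a. miR-200a-5p lies at chr4:156054949-156054970 (-) in an intron of Ttll10. miR-21b, at chr3:29636768-29636790 (+) in an intron of Egfem1, matches miR-21a-5p at 18 of 22 positions. The substitutions from miR-21a-5p to miR-21b are C4U, in the seed, G18A, G21U and A22C.

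The third set holds entries of small unadjusted p-value with fewer counts at 6 h:
miR-7009-3p: uCUUUUCCccucucccugcag
miR-7668-3p: cGGUGCAGgggauucagaggag
miR-5622-3p: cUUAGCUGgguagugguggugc
miR-196a-2-3p: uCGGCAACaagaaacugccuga

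miR-7009-3p lies at chr3:36475461-36475481 (-) in an intron of Anxa5, miR-5622-3p at chr2:152865105-152865126 (+) in an intron of Tpx2, and miR-196a-2-3p at chr15:102973401-102973422 (+) in an intron of Hoxc5. miR-7668-3p lies at chr7:29906546-29906567 (+), opposite an exon of Zfp27.

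The 6 libraries held between 861339 and 1429182 counts each, and levels are given as CPM, counts relative to an effective library size, for which a TMM factor corrects the total for composition. That factor was 1.51 in the 3 h library of day 1 and between 0.888 and 1.08 in the other 5. The 10 most abundant entries took 55.4 ± 1.72% of the counts at 3 h and 56.4 ± 2.41% at 6 h (SD, n = 3 each). An exact permutation test over samples, without the day as a block, gave a two-sided p of 0.6 (smallest possible 0.1). One library stood apart: in the 6 h library of day 3, 9 entries were more than 4-fold above the highest of the other 5 libraries, and none of the other 5 had such an entry. The counts are of bulk tissue, so fewer cells of a type and less RNA per cell cannot be told apart.

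No miRNA passed the test for the step. Of 1842 entries deposited, 1470 were tested, and edgeR's quasi-likelihood F test called 0 of them (0% of those tested) at a Benjamini-Hochberg adjusted p under 0.05, the smallest adjusted p being 0.907. An unadjusted p under 0.05 was found for 73 entries (4.97%), 35 with more and 38 with fewer counts at 6 h, and DESeq2 called 0 with 55 such entries. The 3 libraries of 6 h lay wholly above the 3 of 3 h for 40 entries (2.72%) and wholly below them for 61 (4.15%). The median log2 fold change, 6 h over 3 h, was -0.04, with 678 entries above 0 and 792 below, and 90% of the entries lay between -0.73 and 0.59.

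How far a difference could be bounded depended on the level of the miRNA. The 95% intervals were computed for each entry alone, with the TMM factors taken as given. For 634 of the 1470 entries the interval of the log2 fold change lay within 1 in both directions, short of a 2-fold difference. Of the 73 entries above 1000 CPM this held for 67 (91.8%), and of the 191 between 100 and 1000 CPM for 140 (73.3%). Of the 752 between 10 and 100 CPM it held for 355 (47.2%), and of the 454 below 10 CPM for 72 (15.9%). At those low levels most intervals were too wide to bound a 2-fold difference. An entry that missed the threshold, at any level, is not shown to be equal at both times. The exceptions above 1000 CPM were miR-434-3p, miR-138-5p, miR-182-5p, miR-7046-3p, miR-340-5p and miR-30b-5p.

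The direction of the fitted values moved with level. Above 1000 CPM 54 of 73 entries were above 0, with a median of 0.14, and between 100 and 1000 CPM 123 of 191, with a median of 0.11. Below 10 CPM 180 of 454 were above 0, with a median of -0.10. Scaling changes this picture: the median of the entries of at least 100 CPM was 0.11 with TMM factors, -0.05 with total counts alone and 0.01 with TMM factors taken from abundant entries. Without the 3 h library of day 1, the one with the high TMM factor, it was 0.005. The 5p and the 3p strands had nearly the same median, -0.03 over 622 entries and -0.04 over 619.

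**Figure D1:**
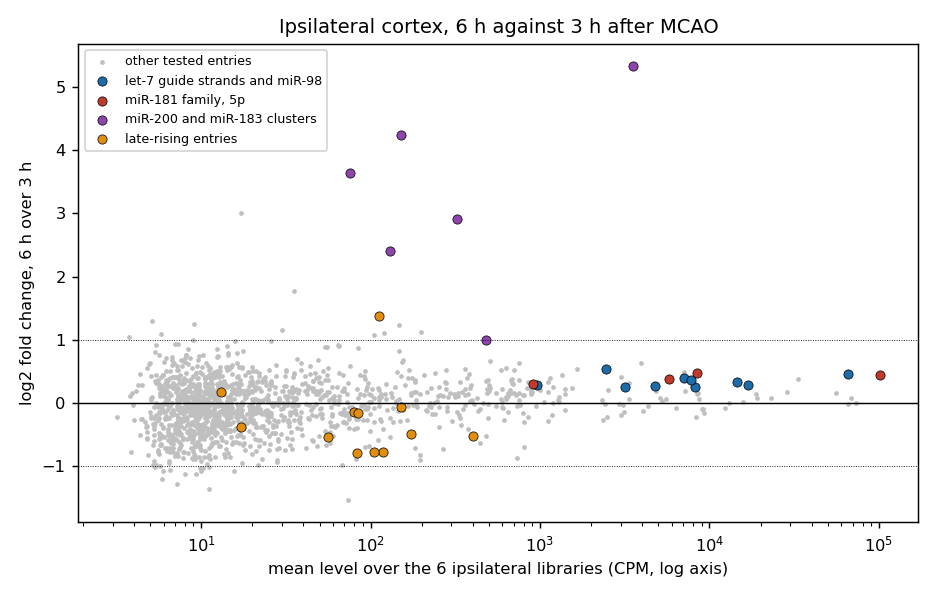
Log2 fold change of 6 h over 3 h in ipsilateral cortex (vertical axis) against the mean level over the 6 libraries in CPM (horizontal log axis), 1 point per tested entry, with 4 lists in colour and dotted lines at 2-fold. The let-7 and miR-181 members lie above 0 within the 2-fold lines at high level, while the miR-200 and miR-183 members above 1 rest on 1 library of 6 h.

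The most abundant miRNA of these libraries was miR-181a-5p, a member of a family enriched in brain and lymphocytes. Its level was 74228, 103070 and 82470 CPM at 3 h on days 1, 2 and 3, and 121750, 100600 and 128820 CPM at 6 h. The 6 h values of days 1 and 3 were above all 3 values of 3 h, that of day 2 was not, and so the groups overlapped. The log2 fold change was 0.45 ± 0.18 (SE), with a 95% interval of 0.07 to 0.83 (edgeR, unadjusted p = 0.0218, adjusted p = 0.907). In the same family miR-181b-5p stood at 6507, 7975 and 6672 CPM and then at 10056, 7972 and 11160 CPM, a log2 fold change of 0.47 ± 0.18. miR-181c-5p was at 0.39 ± 0.21 and miR-181d-5p at 0.30 ± 0.18. The 4 members thus had positive fitted values, beside medians of -0.04 over all entries and 0.14 over those above 1000 CPM. Their own median was 0.42, and 0 of the 4 passed the test. The median was 0.30 without the 3 h library of day 1 and 0.25 with total counts. The contralateral step, which shares no library with this one, had a median of 0.32 for the same 4 with TMM factors. Over the entries above 1000 CPM it was 0.26.

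The let-7 family are regulators of differentiation whose maturation is blocked by Lin28 in stem cells. Of its guide strands, with miR-98-5p, 10 were tested, all 10 had fitted log2 fold changes above 0, from 0.26 to 0.53, and 0 passed the test. let-7f-5p, the most abundant, was measured at 45020, 66363 and 55384 CPM at 3 h and at 89047, 67934 and 71508 CPM at 6 h. Its groups did not overlap, but on day 2 the levels of 3 and 6 h differed little, and the log2 fold change was 0.46 ± 0.20 with an interval of 0.04 to 0.88. let-7e-5p went from 5903, 6191 and 6244 CPM to 10263, 6604 and 7508 CPM, again without overlap and with the widest gap on day 1 (log2 fold change 0.39 ± 0.17). Groups without overlap were found for 3 of the 10, let-7c-5p being the third, beside the 2.72% of all entries higher at 6 h. Of the 73 entries above 1000 CPM 5 had groups without overlap, in either direction. let-7j, whose seed differs from that of the others, had 1655, 2274 and 2081 CPM and then 3228, 2131 and 3379 CPM, with overlap through day 2 and a log2 fold change of 0.53 ± 0.21. All 10 intervals lay within a 2-fold difference.

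These values moved with 1 library. The list median of let-7 was 0.31 with all libraries, 0.15 without the 3 h library of day 1 and 0.15 with total counts in place of TMM factors. In the contralateral cortex it was 0.34 over the same interval, read with TMM factors only. There too the 3 h library of day 1 had the highest TMM factor of its step, 1.285. The medians of all entries above 1000 CPM were 0.14 in ischemic and 0.26 in contralateral cortex. The members share most of their sequence, and the labels do not state how reads matching several of them were counted, so the 10 values are not independent. Grouped by seed, the 4 tested entries with ACAUUCA (miR-181) had the highest median, 0.42, of the 13 seeds with at least 4 tested entries of known sequence. The 9 with GAGGUAG (let-7) followed at 0.28, and the lowest median was -0.31, for 4 entries with CUGUUCU.

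Neuronal miRNAs that mark cortex tissue were abundant, and most had narrow bounds on the step. The list of 13 had 8 fitted values above 0 and 5 below, with a median of 0.06, and 0 passed the test. miR-124-3p, which represses non-neuronal transcripts in neurons, was at 2321, 5949 and 5310 CPM at 3 h and at 3193, 5714 and 3523 CPM at 6 h. The 6 h values lay inside the range of 3 h, and the log2 fold change was -0.04 ± 0.19, with an interval of -0.42 to 0.34. miR-128-3p, a neuronal miRNA that dampens excitability, had a log2 fold change of 0.07 ± 0.19 at a mean of 68774 CPM, and miR-9-5p, of neurogenesis, 0.18 ± 0.18 at 28571 CPM. miR-138-5p, an inhibitor of dendritic spine growth, had an interval that reached past a 2-fold difference, -0.25 to 1.53, and stood at 2232, 4706 and 2584 CPM and then at 2224, 3490 and 8572 CPM. Its highest value is that of the 6 h library of day 3. The passenger strand miR-124-5p was at 30.2, 66.3 and 43.2 CPM and then at 65.7, 67.1 and 63.1 CPM, a log2 fold change of 0.56 ± 0.23, with the 6 h values close together and the 3 h value of day 2 among them.

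The activity-dependent pair gave narrow intervals. miR-132-3p was at 5012, 6835 and 8380 CPM at 3 h and at 6640, 7283 and 8968 CPM at 6 h. It was higher at 6 h on each of the 3 days, the groups overlapped, and the log2 fold change was 0.20 ± 0.18 with an interval of -0.16 to 0.56. miR-212-3p, from the same transcript, was at -0.16 ± 0.19. All 4 strands of miR-132 and miR-212 had intervals within a 2-fold difference.

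The hypoxia miRNA miR-210-3p was rare in these libraries. It was measured at 25.5, 60.0 and 45.3 CPM at 3 h and at 51.8, 47.3 and 67.2 CPM at 6 h. The groups overlapped, and the log2 fold change of 0.42 ± 0.27, with an interval of -0.14 to 0.98, did not pass the test. The other arm, miR-210-5p, was at 0.06 ± 0.34.

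Of the injury miRNAs, miR-21a-5p, which is raised in many damaged tissues, was at 979, 2020 and 1309 CPM at 3 h and at 1654, 1786 and 1553 CPM at 6 h. The 6 h values lay inside the range of 3 h, and the log2 fold change was 0.23 ± 0.20 (interval -0.19 to 0.66). Its passenger strand miR-21a-3p was at 8.72, 22.1 and 11.9 CPM and then at 4.98, 12.1 and 6.64 CPM, lower on each day though the groups overlapped, with a log2 fold change of -0.83 ± 0.36. miR-21b, the near copy shown above, read 268, 119 and 54.0 CPM and then 340, 91.3 and 320 CPM. Its log2 fold change of 1.13 ± 0.41 was 0.03 without the 6 h library of day 3. miR-22-3p, the sixth most abundant entry, was at 0.17 ± 0.16, and miR-221-3p and miR-222-3p, growth-promoting miRNAs of vessel wall, were at 0.10 ± 0.18 and 0.08 ± 0.22. Over the 6 entries of the list 0 passed the test and the median was 0.09.

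Among markers of blood-borne cells and microglia, miR-146b-5p, which restrains signalling to NF-kB, had one of the smaller unadjusted p-values. It stood at 444, 496 and 896 CPM at 3 h and at 911, 733 and 1056 CPM at 6 h. On every day the 6 h library was the higher, the groups overlapped through day 3, and the log2 fold change was 0.63 ± 0.24 (edgeR, unadjusted p = 0.0170, adjusted p = 0.907). The contralateral step of miR-146b-5p was 0.69, and the difference of both steps -0.06. Its relative miR-146a-5p was at 0.53 ± 0.30. miR-142a-5p, a miRNA of blood-forming lineages, was at 130, 381 and 262 CPM and then at 167, 346 and 151 CPM, with overlap and a log2 fold change of -0.17 ± 0.24. The neutrophil marker miR-223-3p was at 8.72, 14.2 and 11.9 CPM and then at 16.9, 12.1 and 7.47 CPM, with no order between the times, and miR-155-5p of activated leukocytes lay between 4.15 and 12.9 CPM in the 6 libraries, at -0.18 ± 0.38. Of the 6 tested members 4 had fitted values above 0 and 2 below, with a median of 0.20, and 0 passed the test. The summed level of the list was 1394 to 2383 CPM at 3 h and 1983 to 3095 CPM at 6 h, with overlap, and 2272 to 2390 CPM in sham. Its most abundant tested member, miR-150-5p, was at 625, 925 and 696 CPM and then at 446, 836 and 1570 CPM. The highest of these is the 6 h library of day 3, and the log2 fold change was 0.33 ± 0.36.

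Other cell types were represented in both groups at overlapping summed levels. Vessel markers, led by the smooth muscle miRNA miR-143-3p, summed to 10905 to 24147 CPM at 3 h and 14547 to 19838 CPM at 6 h, and the erythrocyte markers, with miR-451a, to 96.5 to 206 and 142 to 209 CPM. Choroid plexus markers, almost all miR-204-5p, summed to 2780 to 6161 and 3095 to 5381 CPM, and oligodendrocyte markers, led by miR-338-3p, to 930 to 3388 and 1376 to 2466 CPM. The ranges of 3 and 6 h overlapped for each of these lists, and 0 of the 14 tested members passed the test. Every tested member was above 0 in all 6 libraries. The meninges list ranged from 196 to 507 and 197 to 371 CPM, and the muscle miRNA miR-133a-3p from 102 to 172 and 82.7 to 158 CPM.

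The highest fitted fold changes of the step rest on a single library. The miR-200 and miR-183 clusters are known from epithelia and sensory neurons, and of a list of 8 of their strands 6 were tested:
miR-182-5p: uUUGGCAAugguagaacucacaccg
miR-200a-3p: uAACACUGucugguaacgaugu
miR-141-3p: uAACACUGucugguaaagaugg
miR-200b-3p: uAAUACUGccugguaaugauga
miR-429-3p: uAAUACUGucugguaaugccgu

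The 5 strands shown carry 3 seeds and come from 3 loci. miR-200a-3p, miR-200b-3p and miR-429-3p lie together on chromosome 4, miR-141-3p lies at chr6:124717917-124717938 (-) and miR-182-5p at chr6:30165962-30165986 (-). miR-182-5p was at 326, 166 and 62.6 CPM at 3 h and at 214, 111 and 20224 CPM at 6 h. Thus the 6 h libraries of days 1 and 2 lay within the range of 3 h, and that of day 3 stood far above it. miR-200a-3p likewise read 15.4, 3.94 and 8.64 CPM and then 5.98, 5.17 and 873 CPM. miR-429-3p reached 1648 CPM in that library, miR-183-5p 1600 CPM, miR-200b-3p 606 CPM and miR-141-3p 405 CPM. These 6 strands are among the 9 entries in which the 6 h library of day 3 stood apart, the others being miR-7062-3p, miR-3092-5p and miR-7655-3p.

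The same 6 strands were also high in 1 of the 3 sham libraries. miR-182-5p was at 22414 CPM in sham replicate 2, beside 143 and 87.9 CPM in the other sham libraries, and each of the other 5 strands was there more than 4-fold above both others. The median log2 fold change of the list was 3.27 with all libraries and -0.39 without the 6 h library of day 3. None of the 6 passed the test, with adjusted p from 0.907 upward in edgeR. miR-200a-5p, the other arm of the miR-200a hairpin, had a different pattern: 39.6, 44.2 and 30.2 CPM at 3 h and 60.7, 65.4 and 80.5 CPM at 6 h. All of its 6 h values were above all of its 3 h values, with a log2 fold change of 0.89 ± 0.30, or 0.63 without that library. The part of the tissue or the library in these values was not tested.

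Apart from these, the entries of smallest unadjusted p with more counts at 6 h ranged from low to high level. Of the 12, chosen at a mean of at least 10 CPM, 6 were at 100 CPM or more, beside 264 of all 1470 tested. The 1470 include 454 entries below 10 CPM, which could not be chosen. miR-717, from an intron of the glypican gene Gpc3, had 14.1, 8.68 and 6.48 CPM at 3 h and 23.9, 12.9 and 19.1 CPM at 6 h. It was higher at 6 h on each day and its groups overlapped, with a log2 fold change of 0.90 ± 0.30 (edgeR, unadjusted p = 0.00496, adjusted p = 0.907). Its level was 11.5 ± 1.51 CPM in sham and 9.01 ± 0.961 CPM in ipsilateral cortex at 12 h (SD, n = 3). miR-541-5p, of the imprinted Mirg cluster, was far more abundant, at 4385, 7255 and 6367 CPM and then at 7591, 8104 and 8976 CPM. Its groups did not overlap, and the log2 fold change was 0.48 ± 0.18 with an interval of 0.12 to 0.85. miR-7655-3p had the highest fitted value of this set, 3.00 ± 1.15, from 88.8 CPM in the 6 h library of day 3 and at most 6.03 CPM in the other 5 libraries of the step, and stood at -0.07 without that library. The other lead entries of this direction were miR-380-5p at 0.75 ± 0.29, miR-7013-3p at 0.86 ± 0.34, miR-468-5p at 0.70 ± 0.28 and miR-1839-5p at 0.53 ± 0.21.

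The miRNAs of the imprinted region of chromosome 12, which are expressed from the maternal chromosome, many of them in brain, gave mostly narrow intervals. Of 30 tested strands of the Mirg cluster 19 had fitted values above 0 and 11 below, with a median of 0.16, and 0 passed the test. The abundant miR-410-3p was at 0.06 ± 0.17 and miR-411-5p at 0.17 ± 0.16. Of the 10 Rtl1-antisense strands 8 were above 0, with a median of 0.17. miR-127-3p, at a mean of 73065 CPM, had the log2 fold change 0.01 ± 0.16, bounded by -0.33 and 0.34. miR-434-3p was less well bounded, at 35744, 34720 and 18830 CPM and then 22547, 28707 and 58441 CPM. Its highest value again was that of the 6 h library of day 3, and its log2 fold change of 0.38 ± 0.41 was -0.29 without it.

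The 12 lead entries with fewer counts at 6 h, chosen at a mean of at least 10 CPM, had a median level of 18.35 CPM. Over all tested entries, with the 454 below 10 CPM included, it was 14.84 CPM. miR-7009-3p had the smallest unadjusted p of all entries, with 196, 44.2 and 89.6 CPM at 3 h and 23.9, 39.6 and 44.8 CPM at 6 h. It was lower at 6 h on each day, the groups overlapped through day 2 of 3 h, and the log2 fold change was -1.54 ± 0.46 (edgeR, unadjusted p = 0.00346, adjusted p = 0.907). Without the 3 h library of day 1 it was -0.77. For comparison miR-7009-3p was at 17.97 ± 3.58 CPM in sham, and in ipsilateral cortex at 87.2 ± 75.1 CPM at 12 h and 122 ± 41.6 CPM at 24 h (SD, n = 3). miR-7668-3p was at 14.7, 13.4 and 16.2 CPM and then at 6.97, 4.30 and 10.8 CPM. It did not overlap between the times, at a log2 fold change of -1.02 ± 0.35. The same absence of overlap was seen for miR-5622-3p, at 56.3, 26.8 and 29.1 CPM and then 22.9, 15.5 and 18.3 CPM, with -0.93 ± 0.31. For miR-196a-2-3p, from the Hoxc cluster, the values were 38.9, 18.9 and 29.1 CPM and then 14.9, 10.3 and 17.4 CPM. Here too the groups did not overlap, with -0.99 ± 0.35.

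The remaining 8 lead entries of this direction had log2 fold changes from -1.07 (miR-6974-3p) to -0.66 (miR-207). Among them miR-7083-3p, miR-412-3p, miR-7063-5p, miR-207 and miR-6996-5p had groups without overlap, beside 4.15% of all entries in this direction. Of the 12 in all 9 were 3p strands, beside 619 of all 1470 tested entries, which include those below 10 CPM that could not be chosen. The median GC content of the 12 was 59.1% over the 11 with a known sequence. It was 52.4% over the 1290 tested entries with one, at any level. For the 12 lead entries with more counts at 6 h it was 44.7%. Among entries whose groups did not overlap it was 57.1% for those lower and 50% for those higher at 6 h. Their levels differed as well, with medians of 11.1 and 20.8 CPM, beside 14.84 CPM over all tested entries. The part of level or base composition in these values was not tested.

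**Figure D2:**
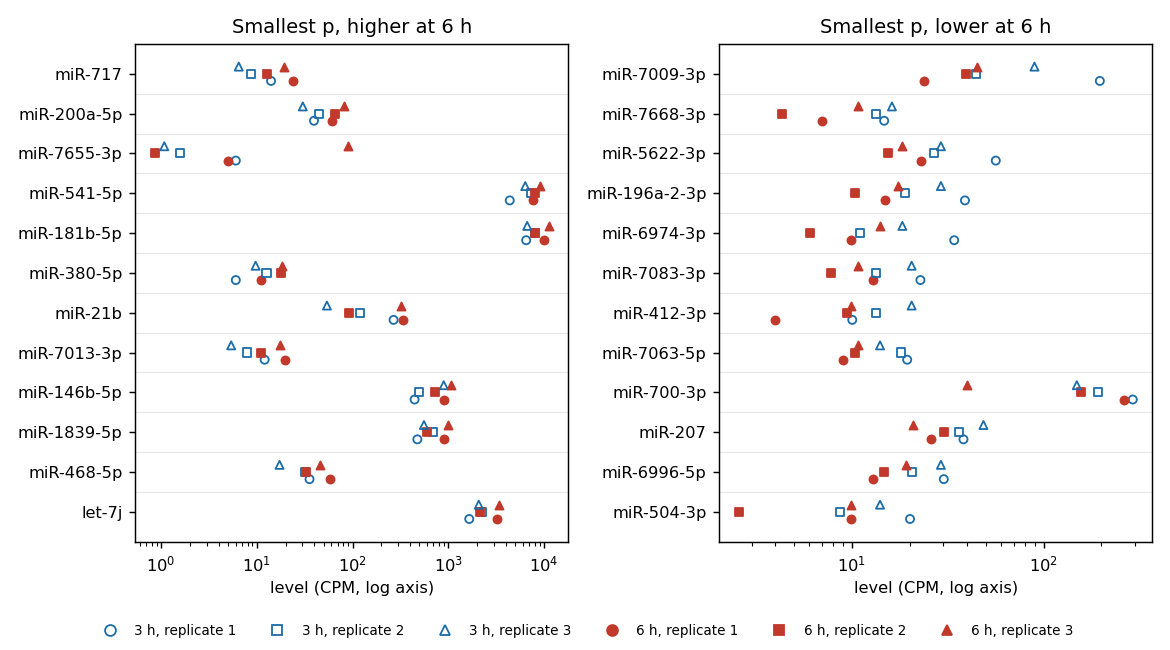
Levels in CPM (horizontal log axes) of the 12 entries of smallest unadjusted p in each direction, at a mean of at least 10 CPM. Open blue marks are the 3 libraries of 3 h, filled red marks those of 6 h, and the marker shape gives the replicate. Groups do not overlap for miR-200a-5p and miR-541-5p among the entries higher at 6 h. Among those lower they do not for miR-7668-3p, miR-5622-3p, miR-196a-2-3p, miR-7083-3p, miR-412-3p, miR-7063-5p, miR-207 and miR-6996-5p. All other groups shown overlap, those of miR-7655-3p and miR-21b among them.

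Entries that are high in ischemic cortex at later times were read at this step as well. The 12 of this list were chosen from earlier results of these data and are a description, not independent evidence. The sequences of 3 whose values are given below are:
miR-701-5p: uUAGCCGCugaaauagaugga
miR-2861: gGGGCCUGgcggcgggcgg
miR-6240: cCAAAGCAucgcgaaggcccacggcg

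miR-701-5p, at chr5:111004170-111004190 (+) in an intron of Ttc28, was at 47.6, 66.3 and 54.0 CPM at 3 h and at 62.7, 114 and 328 CPM at 6 h. It was higher at 6 h on each day, by most on day 3, and the log2 fold change of 1.38 ± 0.72, with an interval of -0.13 to 2.89, did not pass the test. In ipsilateral cortex its mean was 1548 CPM at 12 h and 6260 CPM at 24 h. Of the other 11 members 10 had fitted values below 0, beside 792 of all 1470 entries. miR-3960 was at 528, 265 and 640 CPM and then at 138, 247 and 581 CPM, with -0.52 ± 0.59, and miR-2861, from an exon of Cdk9, at 143, 41.8 and 135 CPM and then at 25.9, 49.9 and 105 CPM, with -0.79 ± 0.65. The 6 h library of day 1 was the lowest of the 6 for both.

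The summed level of the 12 showed how uneven the days were. At 3 h it was 1807, 956 and 1869 CPM, and at 6 h 517, 1003 and 2192 CPM. On day 1 the 6 h library was far below that of 3 h, and on days 2 and 3 slightly above. The means were 1544 ± 510 and 1237 ± 862 CPM (SD, n = 3 each). An exact permutation test, which did not hold the day as a block, gave a two-sided p of 0.7 (smallest possible 0.1). With that smallest p, uneven days and a list chosen from these data, it cannot decide whether the summed levels differed. All 6 values were above the contralateral libraries of the same times, which lay between 188 and 362 CPM, and above sham, at 219 to 321 CPM. The median log2 fold change of the ischemic step, -0.43, ranged from -0.64 to -0.03 as single libraries were left out. It was -0.09 without the 3 h and -0.03 without the 6 h library of day 1. The contralateral step of the same 12 also had a median of -0.43, with 1 of them above 0. None of the 12 intervals lay within a 2-fold difference.

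**Figure D3:**
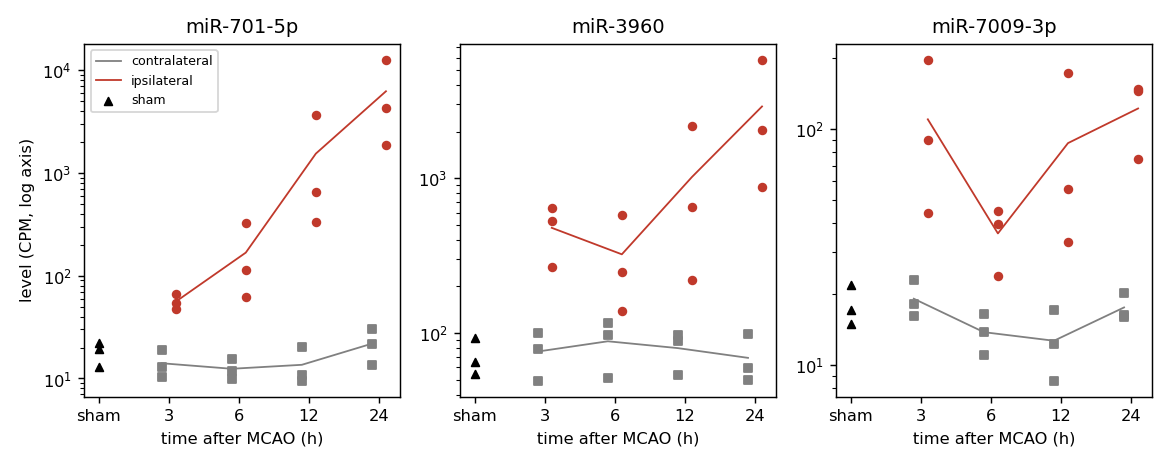
Levels in CPM (vertical log axes) of miR-701-5p, miR-3960 and miR-7009-3p in sham (black triangles) and at each time in ipsilateral (red circles) and contralateral cortex (grey squares), 1 mark per library and a line through the means, with times evenly spaced. Ipsilateral values are above the contralateral ones at both 3 and 6 h, and the marks of 3 and 6 h overlap for all 3 entries.

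The remaining families gave small medians with intervals mostly within a 2-fold difference, and 0 of their members passed the test. In the miR-17/92 clusters 6 of 12 intervals lay within it, and that of miR-18a-5p ran from -2.43 to 1.83. In the miR-34 family miR-34b-3p was at -0.81 ± 0.38, with an interval of -1.59 to -0.02. The miR-30 family had a median of 0.14 (5 of 5 above 0), the miR-29 family 0.01 (2 of 3) and the miR-26 family 0.09 (1 of 2). miR-26a-5p itself, at a mean of 66091 CPM, was at -0.02 ± 0.21. The miR-99, miR-100 and miR-125 group had a median of -0.08 with 1 of 5 above 0, the lowest of the abundant families, and miR-125b-5p in it was at -0.22 ± 0.21. The miR-15 and miR-16 family had a median of 0.11 (4 of 6), the miR-17/92 clusters 0.14 (7 of 12), the miR-23, miR-27 and miR-24 clusters 0.09 (5 of 7) and the miR-34 family, a target of p53, -0.10 (2 of 5).

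**Figure D4:**
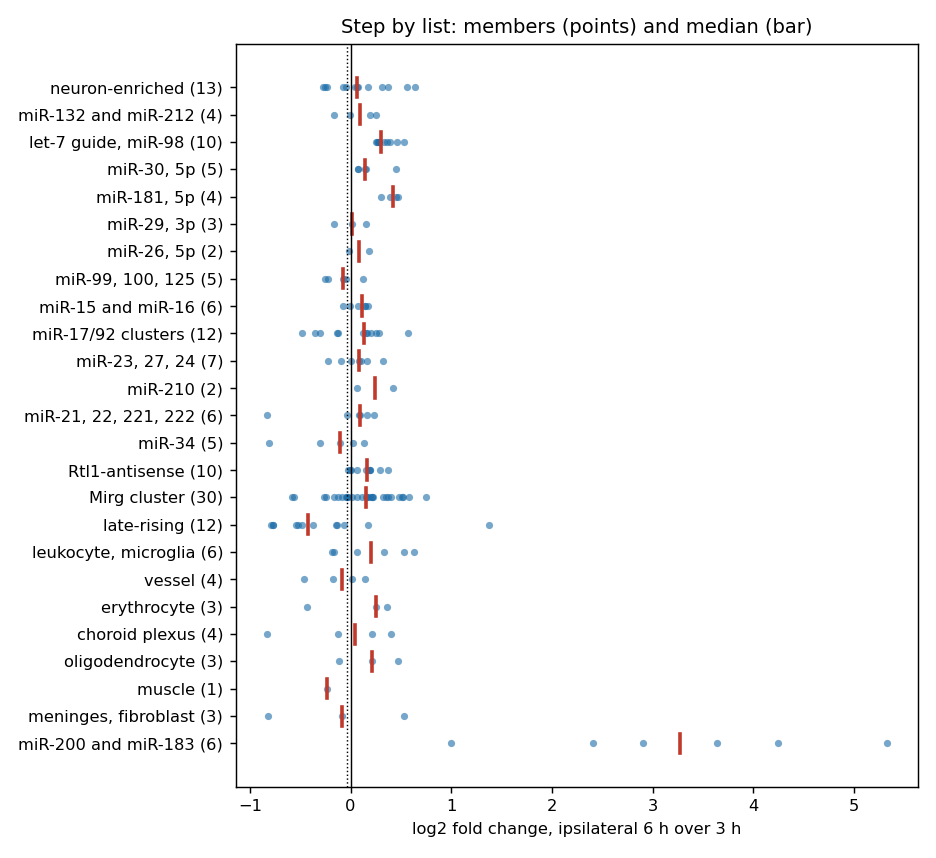
Log2 fold change of 6 h over 3 h in ipsilateral cortex (horizontal axis) for each tested member of 25 lists (points) with the list median (red bar), the number of members in brackets, and the median of all entries as a dotted line. Most medians lie near 0, the let-7 and miR-181 medians are at 0.31 and 0.42, and the miR-200 and miR-183 median at 3.27 rests on 1 library.

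Whether the step was particular to the ischemic side was asked with the contralateral libraries. There edgeR called 0 of 1470 entries (0%) at an adjusted p under 0.05, and 65 (4.42%) had an unadjusted p under 0.05. A fit of the 6 contralateral libraries alone, with the replicate block, called 11 entries, 6 higher and 5 lower at 6 h. The same kind of fit called 0 in the ischemic cortex. Each such fit leaves 2 residual degrees of freedom, beside 16 in the main fit, and these counts do not compare the sides. The test of the difference between the steps also called 0 entries (0%), with 43 (2.93%) at an unadjusted p under 0.05 and a smallest adjusted p of 0.999. For 281 entries the interval of the difference lay within 2-fold in both directions. Across entries, the fitted values of both steps had the same sign for 864 of 1470, with Pearson's r of 0.12 and Spearman's rho of 0.19. The steps share no library but share the days of surgery, the scaling and the fit, and entries are not independent replicates.

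Entries of small unadjusted p for that difference, at a mean of at least 10 CPM, are given as values that did not pass. miR-706 was at 45.6, 30.0 and 29.1 CPM and then at 52.8, 53.4 and 50.6 CPM on the ischemic side, and at 42.6, 45.2 and 49.0 CPM and then at 19.9, 32.2 and 36.2 CPM on the other. The groups did not overlap on either side, and the order of the times was opposite. The difference of the steps was 1.20 ± 0.39 on the log2 scale (edgeR, unadjusted p = 0.00526, adjusted p = 0.999). For miR-717 it was 1.41 ± 0.44. miR-204-5p, the choroid plexus and pigment epithelium miRNA, was at 6122, 3896 and 2732 CPM and then at 5339, 3159 and 3049 CPM on the ischemic side. Its contralateral values were 2679, 2480 and 2292 CPM and then 7276, 3098 and 2685 CPM, the high value being of day 1, and the difference of the steps was -0.83 ± 0.31.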

How the data were processed

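Cortex small RNA libraries were sequenced as 69 bp single-end reads of 15 to 35 bp inserts on a MiSeq, per the labels' protocols. The deposited file holds unnormalized read counts for 1842 mature strands in 27 libraries (9 groups of 3), with totals from 856591 to 1903416. The submitters' processing notes name Novoalign and edgeR, without versions. Genome build, miRNA release and the treatment of reads matching several entries are not stated there or in the labels.

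From these counts, filterByExpr kept 1470 entries (99.9% of counts). edgeR 4.0.16 (R 4.3.3) fitted all 27 libraries with TMM factors, robust quasi-likelihood dispersions, a mean per group and the replicate number as a block (16 residual degrees of freedom), and p-values were Benjamini-Hochberg adjusted over all tested entries. Standard errors and 95% intervals are Wald values of that fit. Entries with an adjusted p under 0.05 were called. The design text states that each replicate set is a separate day of surgery; the mean correlation of deviations from group means was 0.22 for 108 same-number pairs and -0.11 for 216 others. Whether libraries of one number share an animal is not given. No replicates agreed within sampling noise (chi-square per degree of freedom of at least 21.3 within the ischemic groups). The fit was tested on simulated counts.

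Named are up to 12 entries per direction by call or, failing that, smallest unadjusted p at a mean of at least 10 CPM, up to 3 per direction of the difference, the 10 most abundant entries, and detected members of 25 lists (180 members, 174 in the table, 166 tested). The members and lists were chosen with earlier results of these data known. Alternatives were no block, RLE factors, total counts, TMM from entries of at least 100 CPM, no filter, DESeq2 1.42.0, only the compared libraries, and each library left out. Sequences were matched by name to RefSeq for 1290 of the 1470 tested entries.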

Additional observations from a re-analysis of the deposited data

How the results depend on the processing

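The ischemic step and the difference of the steps gave 0 calls under every alternative run: no replicate block, RLE factors, total counts, TMM factors from abundant entries, no filter, DESeq2, only the compared libraries, and each library left out (0 to 0 calls). Without the replicate block 49 entries of the ischemic step had an unadjusted p under 0.05, beside 73 with it. With total counts it was 100 and with DESeq2 55, and leaving out single libraries gave 52 to 114. The contralateral step gave 0 calls except when only its own 6 libraries were fitted with the replicate block, where 11 entries were called, 6 higher and 5 lower; the cause was not tested. The median of all entries, -0.04, was -0.22 with total counts and -0.16 with TMM from abundant entries, a shift that all fold changes share.

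Several abundant entries near 0 changed sign. With total counts miR-127-3p was at -0.17, miR-128-3p at -0.11, miR-22-3p at -0.0040, miR-30a-5p at -0.088 and miR-27b-3p at -0.080. With TMM from abundant entries miR-127-3p was at -0.11, miR-128-3p at -0.043, miR-30a-5p at -0.027 and miR-27b-3p at -0.019. Without the block miR-127-3p was at -0.050, and with RLE factors and with DESeq2 miR-26a-5p was at 0.045. Without both the 3 h library of day 1 and the 6 h library of day 3, a setting chosen after seeing the data, miR-21b was at -0.15, miR-665-5p at -0.19, miR-204-5p at 0.036, miR-26a-5p at 0.13, miR-434-3p at -0.27, miR-9-5p at -0.016 and miR-30a-5p at -0.16. As single libraries were left out, values ranged from -0.074 to 3.91 for miR-7655-3p, -0.076 to 1.42 for miR-665-5p, -0.25 to 0.037 for miR-204-5p, -0.17 to 0.22 for miR-127-3p, -0.16 to 0.32 for miR-128-3p, -0.26 to 0.30 for miR-26a-5p, -0.29 to 0.75 for miR-434-3p, -0.013 to 0.35 for miR-9-5p, -0.075 to 0.19 for miR-30a-5p and -0.040 to 0.26 for miR-27b-3p. Of the named entries, none passed the threshold in any of these settings. The 3 libraries per time limit the low entries most, and replicates show variation between days and samples only.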
